A study of Homo sapiens with 6 samples.

Results

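The regions described here are places in the genome where BRD8 was mapped at a CTCF site in the bronchial epithelial line 16HBE14o- but not in the lung adenocarcinoma line Calu3. They were chosen by the peak calls themselves. All peaks of 3 deposited chromatin immunoprecipitation sequencing (ChIP-seq) lists were pooled, peaks sharing at least 1 bp were merged, and a merged region was kept if it held a 16HBE14o- BRD8 peak and a Calu3 CTCF peak and no Calu3 BRD8 peak. Of 21110 merged regions, 2649 met this rule, or 12.5% (95% exact interval 12.1 to 13.0%). They make up 42.8% (41.6 to 44.0%) of the 6191 regions with 16HBE14o- BRD8 and CTCF, and 25.9% (25.1 to 26.8%) of the 10216 CTCF regions without Calu3 BRD8.

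The series has 6 samples: untreated Calu3 cells precipitated for BRD8, untreated Calu3 cells precipitated for CTCF, and untreated 16HBE14o- cells precipitated for BRD8, with 2 replicates each. The labels give the same BRD8 antibody and the same medium for both lines. Each experiment is represented by a single peak list that the authors pooled from its replicates, with 9769 Calu3 BRD8, 9505 16HBE14o- BRD8 and 16413 Calu3 CTCF peaks. Nothing in the labels says whether replicates were separate cultures. No value per replicate was used here, so no difference could be set against the spread between cultures, the sequencing depth behind a list is unknown, and every interval and p-value below covers counting error over regions of these lists. Each group is 1 cell line, and CTCF was mapped in Calu3 only. The peaks differed in width, with medians of 224 bp for 16HBE14o- BRD8, 290 bp for CTCF and 476 bp for Calu3 BRD8. A missing peak shows that a site was not in a list, not that the protein was absent.

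BRD8 belongs to the NuA4/TIP60 histone acetyltransferase complex and carries a bromodomain, a fold that reads acetylated lysines. CTCF binds a long, oriented DNA motif through its zinc fingers and, together with cohesin, anchors chromatin loops and insulates neighbouring domains. Many CTCF sites are occupied in most cell types, but whether the sites described here bind CTCF in 16HBE14o- was not measured.

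Nearly all of these regions were simple. In 2627 of 2649 (99.2%) there was 1 BRD8 peak and 1 CTCF peak, 20 held 2 CTCF peaks, 1 held 3 CTCF peaks and 1 held 2 BRD8 peaks. Their widths ran from 224 to 820 bp with a median of 290 bp, which is also the median width of a CTCF peak.

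By signal, the regions stood in the middle of the 16HBE14o- BRD8 list and above the middle of the CTCF list. The authors' signal of the strongest peak of a region was expressed as a percentile of its own list, where 100 is the strongest end. The rule used the calls of both lists, so these values are given as a description. The BRD8 percentile ran from 0.163 to 99.8 with a median of 51.3 (interval of the median 49.6 to 53.3). For regions with CTCF and BRD8 in both lines the median was 68.0 (66.3 to 69.1), and for 16HBE14o- BRD8 alone without CTCF 29.4 (28.0 to 30.7). The CTCF percentile had a median of 60.5 (58.7 to 62.5), against 76.9 (75.4 to 78.5) with BRD8 in both lines, 52.6 (51.2 to 54.5) with BRD8 in Calu3 only and 35.6 (34.6 to 36.5) without BRD8. In both measures the regions therefore lay below those carrying BRD8 in both lines, and in CTCF signal they lay above CTCF regions without BRD8. The quartiles overlapped in each of these pairs. Among the 2649 regions the 2 percentiles rose together weakly (Spearman's rho = 0.29 across regions, against 0.36 over the 3542 regions with BRD8 in both lines). This is a relation across regions that share their lists, and regions are not replicates.

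**Figure D1:**
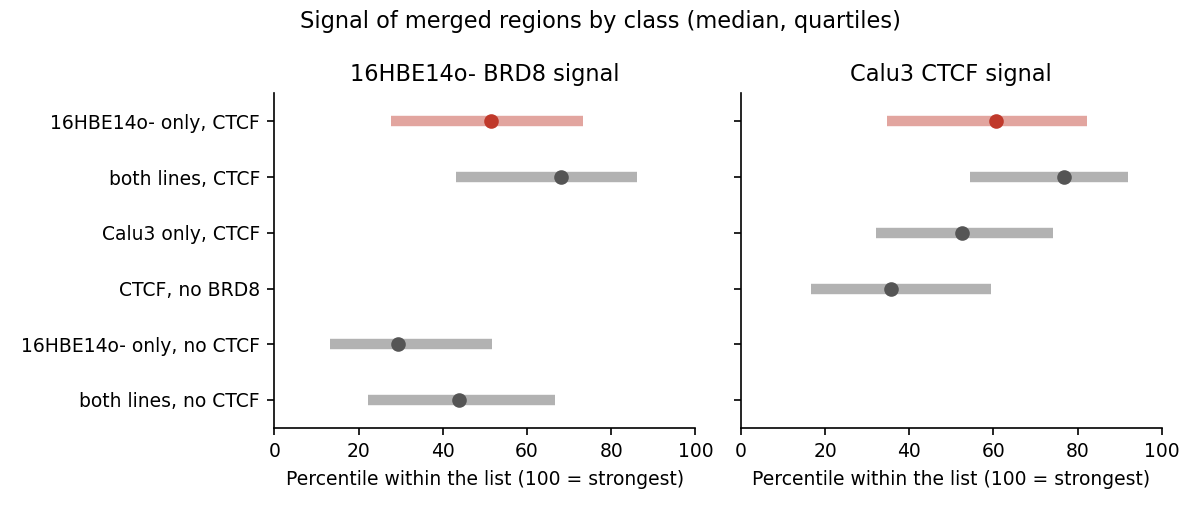
Median (point) and quartiles (bar) of the signal percentile of merged regions, on the left for 16HBE14o- BRD8 and on the right for Calu3 CTCF, with 100 as the strongest end of a list. The 16HBE14o- only regions with CTCF, in red, have medians of 51.3 and 60.5, in each panel the second highest after the regions with CTCF and BRD8 in both lines.

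CTCF regions were divided into deciles of CTCF signal, with decile 1 the strongest. The share that held BRD8 in 16HBE14o- only was 21.2% (19.3 to 23.3%) in the strongest decile, highest in decile 2 at 25.2% (23.1 to 27.4%), between 15.1% and 16.5% in deciles 4 to 8, and 6.51% (5.24 to 7.99%) in the weakest. In the strongest decile only 93 regions of 1636 had no BRD8 peak in either line, and of the CTCF regions there that lacked Calu3 BRD8, 78.9% (74.7 to 82.6%) held it in 16HBE14o-. That share was 52.8% in decile 2, 25.9% in decile 5 and 7.23% (5.82 to 8.87%) in the weakest decile. Read from the side of 16HBE14o-, 25.1% (22.8 to 27.4%) of its BRD8 regions at the strongest CTCF decile lacked a Calu3 BRD8 peak, against 69.3% (63.5 to 74.7%) at decile 9 and 69.1% (60.1 to 77.1%) at the weakest. The strongest CTCF sites without Calu3 BRD8 thus mostly held BRD8 in 16HBE14o-, while among 16HBE14o- BRD8 regions with CTCF, a Calu3 counterpart was missing more often at weak CTCF sites than at the strongest. Neither was particular to this class. In the strongest decile, 1037 regions with Calu3 BRD8 also held it in 16HBE14o- and 159 did not. In the weakest decile these numbers were 38 and 92.

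**Figure D2:**
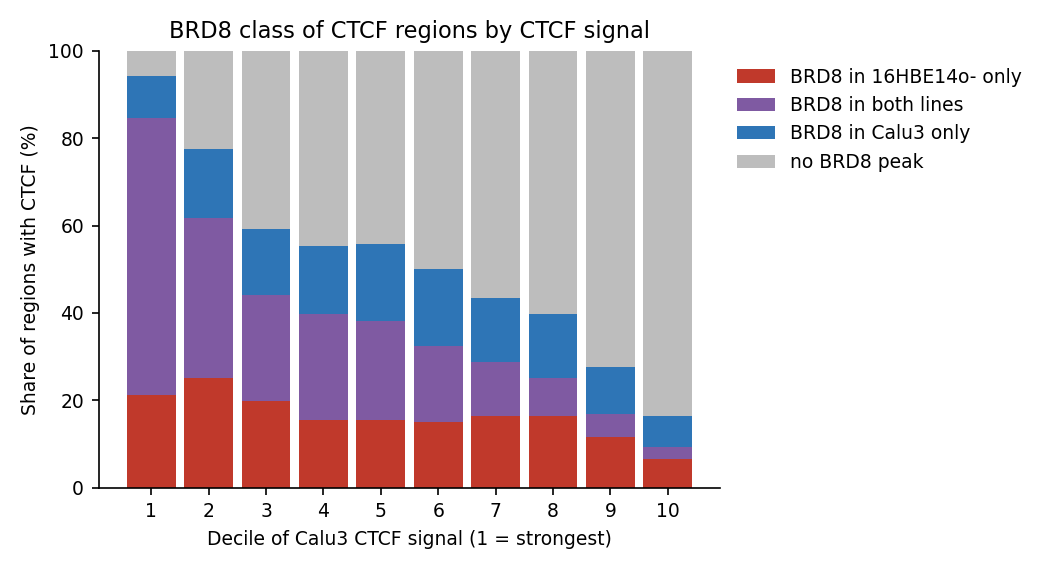
Regions with a Calu3 CTCF peak by decile of CTCF signal (x axis, 1 the strongest), divided by BRD8 class as percent of the regions in the decile (y axis). The red share, BRD8 in 16HBE14o- only, goes from 21.2% to 6.51%, while the share without BRD8, in grey, widens towards weak CTCF.

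Both signals bore on whether a 16HBE14o- BRD8 site with CTCF lacked a Calu3 BRD8 peak. Where CTCF and BRD8 both lay in the lowest 25% of their lists, 117 of 165 regions (70.9%, 63.3 to 77.7%) lacked it. With both in the highest 25% the number was 347 of 1300 (26.7%, 24.3 to 29.2%). At strong CTCF and weak BRD8 it was 125 of 271 (46.1%, 40.1 to 52.3%), and at weak CTCF and strong BRD8 59 of 93 (63.4%, 52.8 to 73.2%). At weak CTCF, the share stayed between 63.4% and 70.9% whatever the BRD8 signal, and those intervals overlapped.

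Some regions carried strong BRD8 over weak CTCF. Of the 216 regions whose BRD8 peak was in the strongest decile of 16HBE14o-, 37 (17.1%, 12.4 to 22.8%) had CTCF in the lower 50% of its list. Among regions with BRD8 in both lines this was 46 of 662 (6.95%, 5.13 to 9.16%). The classes already differed in this: CTCF was in the upper 50% in 60.0% of all regions described here and 78.9% of those with BRD8 in both lines. In both classes weak CTCF was thus less common at the strongest BRD8 peaks than in the class as a whole. These shares follow from the calls and were not tested.

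The 10 regions of highest 16HBE14o- BRD8 signal show both kinds. The first was at 12q13.3 (hg19 chromosome 12, 57400240 to 57400543), with a BRD8 signal of 110.1, rank 16 in its list, and a CTCF signal of 330.7, rank 19. Its summits were 14 bp apart and the nearest Calu3 BRD8 peak was 62615 bp away. The region at 11q12.2 (chromosome 11, 61519823 to 61520130) ranked 23 for BRD8 and 16 for CTCF. At 21q22.3 (chromosome 21, 45209200 to 45209481) the ranks were 29 and 669. The region at 14q32.33 (chromosome 14, 105512077 to 105512366) was of the other kind, with rank 32 for BRD8 and 11046 for CTCF. So was one of the pair at 20q13.32 (chromosome 20, 58100596 to 58100896), with ranks 92 and 12391, whereas the other (57978824 to 57979087) ranked 43 and 244. At 11q13.4 (chromosome 11, 74952696 to 74953002) the ranks were 46 and 156, and at 6q23.2 (chromosome 6, 131949386 to 131949609) 55 and 1608. The last were 17q21.31 (chromosome 17, 44270746 to 44271065), with ranks 85 and 5, and 2p21 (chromosome 2, 47550314 to 47550603), with ranks 102 and 8478. In 7 of the 10, CTCF was above its 90th percentile, and in the remaining 3 it was below its 50th.

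By CTCF signal, the leading regions were 17q21.31 with a signal of 364.5, 3q22.3 (chromosome 3, 138634298 to 138634582) with 343.9, 8q24.3 (chromosome 8, 145911147 to 145911447) with 342.9, 11p11.2 (chromosome 11, 46368757 to 46369048) with 336.4, and 11q12.2 with 333.2. Their BRD8 ranks in 16HBE14o- were 85, 841, 703, 4998 and 23, so a very strong CTCF peak went with anything from a leading to a middling BRD8 peak. The regions of highest summed rank were 12q13.3, 11q12.2, 17q21.31, 11q13.4 and the stronger one at 20q13.32. At the other end, the weakest BRD8 peaks were those at 17q11.2 (chromosome 17, 29151519 to 29151833), with a signal of 11.3, and at 21q22.2 (chromosome 21, 41758328 to 41758551), with 13.1. The next were 22q11.23 (chromosome 22, 24552971 to 24553194), 17q12 (chromosome 17, 34296531 to 34296820) and 17p13.3 (chromosome 17, 1532274 to 1532566), with signals of 14.6, 14.8 and 14.99. In 4 of these 5 CTCF was above its 75th percentile, and the exception was 17q12, at 26.7. These 5 were not typical of weak BRD8. Of the regions described here with BRD8 in the lowest 25% of its list, 125 had CTCF in the highest 25%. Among the same weak BRD8 regions, 151 had CTCF between percentiles 50 and 75, 189 between 25 and 50, and 117 below 25.

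BRD8 and CTCF summits, which came from different lines, lay close together. The rule joins overlapping peaks, so peak widths limit how far apart the summits can be. These distances are a description. The median distance was 20 bp (quartiles 9 and 37 bp, highest 271 bp), and 87.5% (86.2 to 88.7%) lay within 50 bp. The BRD8 summit was at the higher coordinate in 1307 regions, at the lower in 1302 and at the same base in 40, so both sides were near equal in number. In 54 regions (2.04%) the summits were over 100 bp apart. Regions with BRD8 in both lines had their summits within 50 bp more often, at 90.2% (89.2 to 91.2%). In those regions a Calu3 BRD8 peak can also join the peaks, and the summits were up to 676 bp apart. The rule thus limits the 2 classes differently, and this comparison, added after the data were seen, is a description. That difference was not detectable at equal signal: the Mantel-Haenszel odds ratio was 0.932 (0.789 to 1.10) within deciles of CTCF signal and 0.930 (0.788 to 1.10) within deciles of BRD8 signal.

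Most regions lay far from any Calu3 BRD8 peak. The nearest was a median of 73497 bp away (interval 66915 to 79476 bp), with quartiles of 20119 and 245900 bp. A Calu3 BRD8 peak lay within 10 kb of 425 regions, or 16.0% (14.7 to 17.5%), within 1 kb of 81 (3.06%, 2.44 to 3.79%) and within 100 bp of 12 (0.453%, 0.234 to 0.790%). Within 10 kb the share was 20.1% (19.2 to 20.98%) for CTCF regions without BRD8 and 12.5% (11.3 to 13.8%) for 16HBE14o- BRD8 alone without CTCF. The regions with both proteins were thus between these classes, with intervals that did not overlap either. All 3 classes were chosen for holding no Calu3 BRD8 peak, so these distances are a description. The regions farthest from Calu3 BRD8 were all on 13q, led by 13q31.1 (chromosome 13, 80917021 to 80917244), with 18408 kb to the nearest peak and a BRD8 rank of 588. The others were 13q22.3 (chromosome 13, 77554327 to 77554550), a pair at 13q22.2 (75793953 to 75794176 and 76056659 to 76056882) and 13q34 (114992296 to 114992594). Calu3 BRD8 was found at 18.2% of all CTCF regions on 13q. Such distances were not particular to this class: the highest was 19071461 bp for 16HBE14o- BRD8 alone and 16852445 bp for CTCF regions without BRD8.

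**Figure D3:**
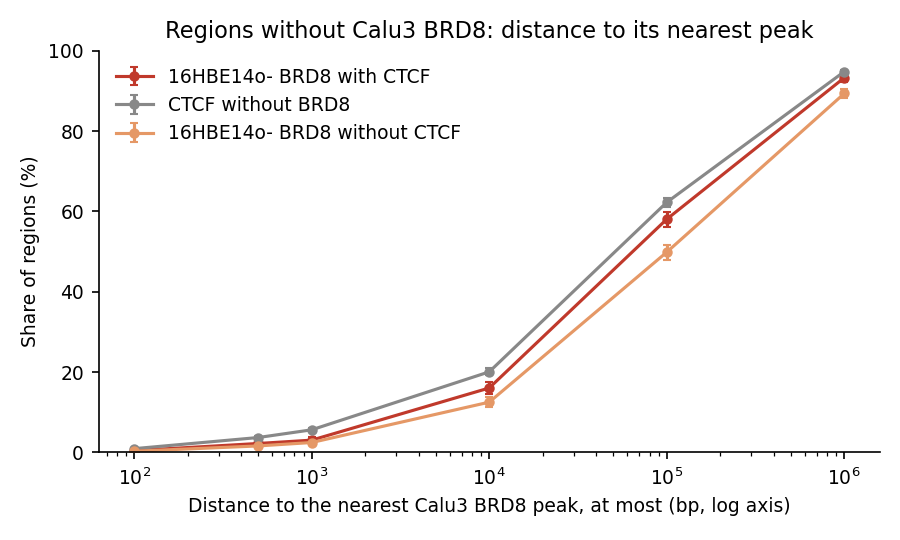
Share of regions (y axis, percent with 95% exact interval) that have a Calu3 BRD8 peak within the distance on the x axis (bp, log scale), for 3 classes that hold none themselves. The red line, 16HBE14o- BRD8 with CTCF, passes through 3.06% at 1 kb and 16.0% at 10 kb, between the other classes at 10 kb.

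A few regions had a Calu3 BRD8 peak right beside them. This was not particular to the class. CTCF regions without BRD8 had one within 1 kb in 5.63% and within 100 bp in 0.938%. For 16HBE14o- BRD8 alone the shares were 2.47% and 0.295%. Just inside the rule, the nearest Calu3 peak was 5 bp away at 11q13.4 (chromosome 11, 71688805 to 71689094), 6 bp at 22q13.31 (chromosome 22, 46710263 to 46710552), 20 bp at 11q23.3 (chromosome 11, 120382184 to 120382482), 24 bp at 11q21 (chromosome 11, 94884223 to 94884512) and 27 bp at 11q12.2. Just outside it were 3q21.1 (chromosome 3, 123005117 to 123005897), 3q22.1 (129369139 to 129369897) and 3q21.3 (128144712 to 128145486), where the Calu3 peak overlapped the 16HBE14o- BRD8 or CTCF peak by 6, 7 and 18 bp. The next, each with an overlap of 27 bp, were 15q24.2 (chromosome 15, 75660103 to 75661171) and 6q21 (chromosome 6, 107996335 to 107996684). Such neighbours were also found at the strongest CTCF peaks. At 17q21.31 a Calu3 peak of rank 1695 lay 99 bp away, at 3q22.3 a peak of rank 1311 lay 115 bp away, and at 11q12.2 the neighbour ranked 2370, so 3 of the 5 regions of highest CTCF signal had Calu3 BRD8 next to them. Of the 347 regions in the strongest CTCF decile, 20 (5.76%, 3.56 to 8.76%) had a Calu3 peak within 1 kb. The 81 regions with such a neighbour had a median CTCF percentile of 74.2 (66.7 to 81.9), against 59.9 (58.0 to 61.9) for the other 2568, and a similar median BRD8 percentile, 54.9 (36.6 to 63.6) against 51.2 (49.4 to 53.1). The neighbouring Calu3 peaks ranged from percentile 0.0256 to 95.5 of their list, with a median of 47.1.

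The regions were spread unevenly over chromosome arms. For each arm, the share of CTCF regions without Calu3 BRD8 that held BRD8 in 16HBE14o- was set against that of all other arms. Of 41 arms with at least 20 such regions, 24 differed (58.5%) by Fisher's exact test at a Benjamini-Hochberg threshold of 0.05, 14 with a higher and 10 with a lower share. Regions are not replicates and neighbours can depend on each other, so each p-value here and for bands describes these lists and overstates the evidence for a difference between places. Shares ran from 4.30% to 64.3%, with a median of 26.1%.

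On the short arm of chromosome 11, 11 of 256 CTCF regions without Calu3 BRD8 held it in 16HBE14o- (4.30%, 2.16 to 7.56%), an odds ratio of 0.125 (exact adjusted p = 3.97e-19). The share was similarly low on 10p, where 4 of 78 did (5.13%, 1.41 to 12.6%; exact adjusted p = 1.11e-05). Then came 3q with 40 of 465 (8.60%, 6.22 to 11.5%; exact adjusted p = 2.94e-20). These arms were poor in 16HBE14o- BRD8 as a whole: it was found at 7.42% of all CTCF regions on 11p, 6.78% on 10p and 24.4% on 3q. Over the whole genome it was found at 6191 of 15993 CTCF regions. Calu3 BRD8 was found at 38.8% of all CTCF regions on 11p, 33.9% on 10p and 46.9% on 3q. On 11p and 10p no region held 16HBE14o- BRD8 alone.

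At the other end, 27 of 42 regions on 18p (64.3%, 48.0 to 78.4%; odds ratio 5.18, exact adjusted p = 7.66e-07) and 81 of 175 on 6q (46.3%, 38.7 to 54.0%; exact adjusted p = 3.43e-08) held BRD8 in 16HBE14o-. On 9q the number was 108 of 255 (42.4%, 36.2 to 48.7%; exact adjusted p = 4.44e-08). BRD8 in 16HBE14o- was found at 71.7% of all CTCF regions on 18p, 56.4% on 6q and 52.3% on 9q, and Calu3 BRD8 at 30.0%, 25.8% and 29.8%. The arms of chromosome 18 were called in opposite directions, since on its long arm 17 of 182 regions were of this class (9.34%, 5.54 to 14.5%). On 14q the number was 146 of 356 (41.0%). The arms with most regions were 1p (187), 14q and 15q (131), and 45 (1.70%) were on X. The strength of CTCF differed between arms, with a median percentile of CTCF regions without Calu3 BRD8 of 40.1 on 11p and 37.1 on 18p against 64.9 on 19p. When arms were compared within deciles of CTCF signal, 23 of the 24 calls remained, in the same direction; 8q was no longer called, and 16p and 19p were called lower. With the upper 50% of each list 15 arms were called, and only 13 of the 24 calls remained. The call of 9q was among those lost (odds ratio 1.35, exact adjusted p = 0.145).

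**Figure D4:**
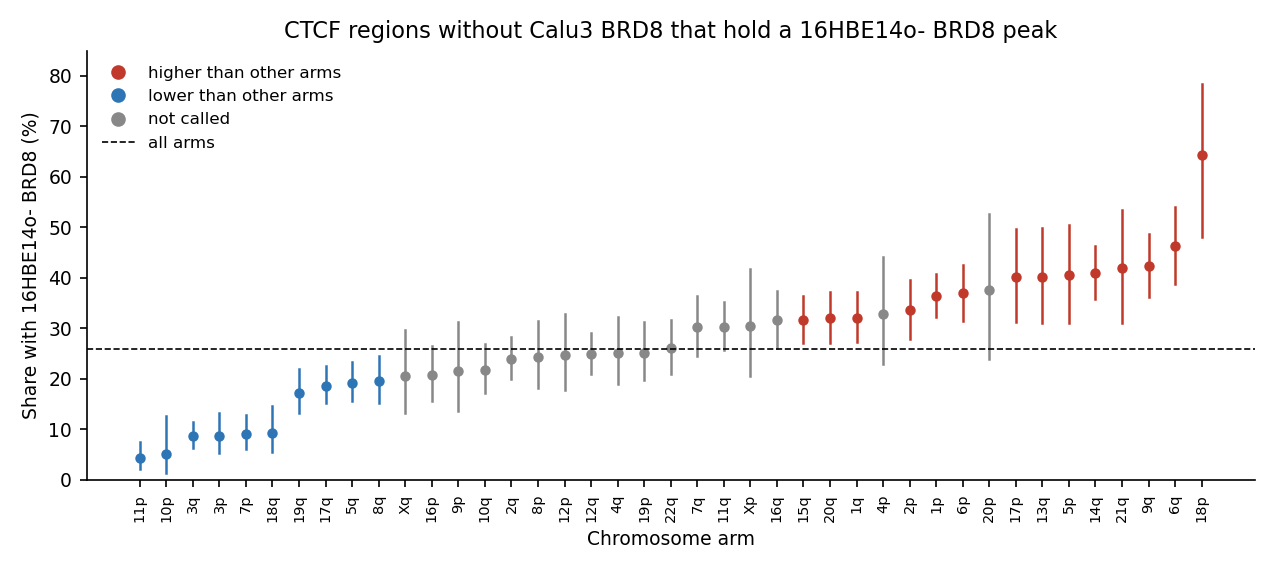
Share of CTCF regions without Calu3 BRD8 that held 16HBE14o- BRD8 (y axis, percent with 95% exact interval) on 41 chromosome arms (x axis), with the share over all arms as a dashed line. Arms in blue were called lower and arms in red higher, from 4.30% on 11p to 64.3% on 18p.

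The spread was uneven within arms too. Each cytogenetic band with at least 20 CTCF regions without Calu3 BRD8 was compared with the rest of its own arm, a comparison added after the data were seen. Of 156 bands, 11 differed (7.05%) by the same test, 5 with a higher and 6 with a lower share. On chromosome 19 low and high bands lay on the same arm. In 19p13.2 only 1 of 52 regions held 16HBE14o- BRD8 (1.92%, 0.0487 to 10.3%; exact adjusted p = 1.68e-04), against 16 of 27 (59.3%; exact adjusted p = 0.00166) in nearby 19p13.12 and 22 of 51 (43.1%; exact adjusted p = 0.0323) in 19p13.11. Calu3 BRD8 went the other way and was found at 39.5% of all CTCF regions in 19p13.2, 10.0% in 19p13.12 and 26.1% in 19p13.11. The short arm of chromosome 19 as a whole, at 25.2%, was not called.

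In 12q24.33, at the end of the long arm of chromosome 12, none of 41 regions held 16HBE14o- BRD8 (0%, exact upper bound 8.60%; exact adjusted p = 4.57e-04), against 27.2% in the rest of 12q. The band had no 16HBE14o- BRD8 peak at all, with or without CTCF, while Calu3 BRD8 was found at 11 CTCF regions and at 10 regions without CTCF. The other low bands were 11q12.1 with 1 of 24, 8p12 with 2 of 36, 17q12 with 6 of 104 and 20q13.33 with 21 of 105. The other high bands were 15q15.1 with 18 of 25 (72.0%), 11q13.4 with 25 of 40 (62.5%) and 1p36.11 with 22 of 36 (61.1%). Within deciles of CTCF signal, 12q24.33, 19p13.2 and all 5 high bands kept their call, and 11q12.1, 8p12, 17q12 and 20q13.33 lost it (Mantel-Haenszel adjusted p 0.0997, 0.0508, 0.143 and 0.205). Their odds ratios stayed below 1, at 0.0828, 0.144, 0.322 and 0.467, against 0.0920, 0.143, 0.214 and 0.420 without the deciles. With the upper 50% of each list, 4 of 60 bands tested differed. Of the 11 calls 3 were kept, those of 11q13.4, 19p13.12 and 1p36.11. Among the bands named here 4 were tested and not called, and 11q12.1, 12q24.33, 15q15.1 and 8p12 were not tested. The odds ratio of 17q12 was then 0.181 and that of 19p13.11 2.31 (2.97 with all peaks), while those of 19p13.2 and 20q13.33 lay nearer to 1, at 0.242 (0.0422 with all peaks) and 0.784.

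Along the chromosomes, 1571 of the 2649 regions (59.3%) had CTCF regions of other classes on both sides. The other 1078 (40.7%) had a neighbour of the same class, and 466 (17.6%) belonged to 135 unbroken runs of 3 or more. The class makes up 2649 of the 15993 CTCF regions. Some such neighbours and runs arise at that share without any grouping, and the counts were not tested against it. The longest run held 11 regions over 6.53 Mb from 11q21 to 11q22.2 (chromosome 11, 96076402 to 102604338). By definition, a region with Calu3 BRD8 and CTCF would have ended it. No region with Calu3 BRD8 and no CTCF lay between its ends either, as was also so in the other runs named below. The run on 11q also held 35 regions with 16HBE14o- BRD8 and no CTCF peak. BRD8 was strong there, with percentiles from 41.3 to 97.2 and a median of 90.5, and CTCF was mostly weak, from 7.21 to 83.4 with a median of 23.7. In 10 of the 11 regions BRD8 stood at a higher percentile than CTCF. The strongest BRD8 peak of the run (chromosome 11, 102217800 to 102218023) had a signal of 63.8, rank 270, over a CTCF peak of rank 2717. The region at the far end (102604037 to 102604338) ranked 311 for BRD8 and 12616 for CTCF, and the first (96076402 to 96076649) 378 and 3556.

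**Figure D5:**
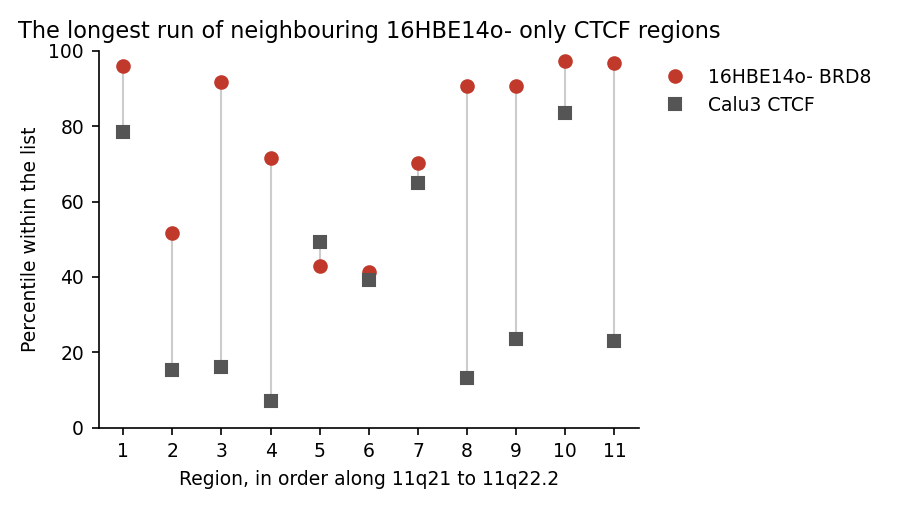
Percentile within the list (y axis, 100 the strongest) of 16HBE14o- BRD8 (red circles) and Calu3 CTCF (grey squares) at the 11 neighbouring regions from 11q21 to 11q22.2, in order (x axis). Grey lines join the pair of values of a region; BRD8 has a median of 90.5 and CTCF of 23.7.

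The next runs had 6 regions each. The one in 19p13.12 (chromosome 19, 14583097 to 14897431) was compact, at 314.3 kb, with median percentiles of 78.4 for BRD8 and 73.8 for CTCF and no other BRD8 region inside. Those in 2p25.3 (chromosome 2, 290253 to 3307691) and from 13q32.3 to 13q34 (chromosome 13, 101241009 to 110437256) stretched over 3.02 and 9.20 Mb. The shortest of the runs of 5 lay in 1p34.3 (chromosome 1, 36981996 to 37169589), with 5 regions in 187.6 kb. In all of these CTCF was of middle to high strength, with medians from 61.0 to 78.6, unlike in the run on 11q.

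By chromosome banding, 61.8% of the regions (60.0 to 63.7%) lay in light bands, which are the gene-rich, early replicating part of the genome. Every class of merged regions lay mostly in light bands, so this was not particular to the regions described here. The share was 60.1% for Calu3 BRD8 alone and 59.7% for BRD8 in both lines without CTCF, which were not tested. For 16HBE14o- BRD8 alone without CTCF it was lower, at 55.5% (53.6 to 57.4%; exact adjusted p = 9.73e-06 over 4 Fisher tests). The odds ratio within arms was 1.29 (1.16 to 1.45). Regions with BRD8 in both lines stood at 64.0%, a difference that missed the threshold over the whole genome (exact adjusted p = 0.0837) but had an odds ratio below 1 within arms (0.8504, 0.762 to 0.949). CTCF regions without BRD8 stood at 59.5% (exact adjusted p = 0.0507; odds ratio within arms 1.09, 0.988 to 1.19). For Calu3 only regions with CTCF the share was 58.5%, which passed (exact adjusted p = 0.0378), but the odds ratio within arms was 1.05 (0.924 to 1.20). The nearest other CTCF region was a median of 27654 bp away (25428 to 30355 bp). It was 17314 bp away with BRD8 in both lines, 22699 bp (20789 to 25428 bp) with BRD8 in Calu3 only and 24043 bp (22462 to 25135 bp) without BRD8. Among these 4 classes with CTCF the median was highest for the regions described here, but its interval touched that of the Calu3 only class. These distances were not tested.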

How the data were processed

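Peaks were on hg19 and made from 2 replicates per experiment by the irreproducible discovery rate, per the file headers and the labels; the header of the CTCF list alone calls its set optimal. The aligner, peak caller, control and settings are not given in the sources used here. The deposited files hold the authors' signal for each peak, by which peaks were ranked within a list, the authors' score (540 to 1000, not used in the text, like the score in the q-value column), and another number, the authors' summit position within the peak. Signals of different lists were not compared.

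Merging, intervals (Clopper-Pearson for shares, order statistics for medians) and two-sided Fisher's exact and Mantel-Haenszel tests with Benjamini-Hochberg adjustment were run with scipy 1.17.1, statsmodels 0.14.6, pandas 2.3.3 and numpy 2.4.6 (Python 3.11.15), and figures drawn with matplotlib 3.10.9. Counts of merged regions equalled those of bedtools 2.31.1, and the code was tested on simulated data. Bands came from circlize 0.4.16, with the lengths of GenomeInfoDb 1.38.1. Coordinates are 1-based.

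The regions, lists and comparisons were chosen with earlier results of these data known. Named regions are the 10 of highest BRD8 signal, 5 each by summed rank, CTCF signal, lowest BRD8 signal and nearness to or distance from Calu3 BRD8, the 5 excluded regions of smallest overlap, the 3 called arms at each end and the 5 longest runs (ties to the shorter). Tests of bands and light bands, and the comparison of summit distance, were added after the data were seen. So were the odds ratios for Calu3 BRD8 within 10 kb. Other arms and bands named were picked after their values were seen. Genes and motifs were not analysed here, since no hg19 sequence or annotation was used. Alternatives were other overlap rules, distances, signal thresholds and widths.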

Additional observations from a re-analysis of the deposited data

How the results depend on the processing

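No paired analysis was possible because each experiment has a single list pooled from its replicates, and so no replicate was left out. The planned comparisons by motif and by distance to transcription starts were not run. With a reciprocal overlap of at least 50%, 3578 CTCF peaks met the rule, against 2649 merged regions in the report. Their median BRD8 percentile was 57.1, their median CTCF percentile 77.8, and the share with Calu3 BRD8 within 10 kb 41.6%. Each BRD8 peak was compared here with the CTCF peak, and a Calu3 peak that overlaps it by less counts as not shared, so this share does not measure distance. The same holds for summits within 100 bp (22.1%). The share was 13.4% without Calu3 peaks within 1 kb. Excluding Calu3 peaks within 10 kb left 7 bands called, of 113 tested. The upper 50% of each list gave 1323 regions, percentiles of 75.4 and 83.4, a summit distance of 16 bp, a share of 12.6%, 15 arms and 4 bands. With only the 16HBE14o- and CTCF lists so limited there were 917 regions, 75.4 and 83.0, 16 bp, 19.7%, 12 arms and 4 bands. Lists of equal length gave 1797 regions, 55.5 and 75.9, 18 bp, 18.3%, 12 arms and 5 bands. These 3 settings tested fewer bands (60, 32 and 48). They kept 13, 10 and 12 of the 24 arm calls, and 3, 2 and 5 of the 11 band calls. No arm or band called in the report was called in the opposite direction under any alternative run. The calls of 11p, 10p, 3q and 6q held in all 11 alternatives, that of 18p in the 8 that tested it, and that of 9q was lost in 2. In bands, 20q13.33 lost its call in 8 of 10 and 17q12 in 5 of 10, while 19p13.12 kept it in 10. The comparison within CTCF deciles was added after the data were seen.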
